A study of Mus musculus with 11 samples.

Results

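The anterior Hox genes measured here were Hoxa2 and Hoxb2 of the second paralog group and Hoxa3, Hoxb3 and Hoxd3 of the third group, 5 of the 18193 genes on the array. They were chosen by gene symbol, through every probe set that the array annotation gave to that symbol alone. These were 9 of the 45037 probe sets tested, and the probe set with the highest mean over all arrays stood for its gene. The Hox1 genes Hoxb1 and Hoxd1 are not among them and are given separately, since their type means lay under 5 on the log2 scale.

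The RNA came from motor neurons sorted by fluorescence out of C57/BL6 mouse embryos that carried the Hb9::GFP reporter, in which a motor neuron promoter drives green fluorescent protein. In trunk explants a rhodamine dextran was applied to a nerve, so that neurons with an axon in it took up the dye, and the spinal cords were then dissociated and sorted. The 3 groups were phrenic motor neurons, which innervate the diaphragm (4 arrays), GFP-only cells of the segments C3 to C5, where phrenic neurons lie (4 arrays), and motor neurons of the lateral motor column (LMC) that project in the radial nerve of the forelimb (3 arrays). All groups shared the strain and the reporter, and the labels give the stage only as embryonic. No spinal segment is given for the LMC radial cells, so the level of the cord and the cell type cannot be told apart in any comparison with them. Whether the arrays of a group stand for different embryos or litters is not stated, and the p-values therefore refer to array-to-array spread, which may be technical. Each array was hybridised with bulk RNA, in which fewer cells of a type and less RNA per cell cannot be told apart.

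Of 12 motor neuron genes, 3 had a mean under 5 in LMC radial cells. In phrenic and in C3-C5 cells 0 did. Chat lay between 5.16 and 5.74 in phrenic, 5.18 and 6.09 in C3-C5, and 4.74 and 5.03 in LMC radial arrays. Mnx1, the gene whose promoter the reporter uses, lay between 8.06 and 9.24 on the log2 scale over the 11 arrays, and Slc18a3, the vesicular acetylcholine transporter, between 7.49 and 8.68. Isl1, a LIM homeodomain factor of motor neurons, lay between 11.88 and 12.43 in the phrenic and C3-C5 arrays and between 8.26 and 10.92 in the LMC radial arrays. Lhx3, which marks medial motor column neurons, lay between 9.86 and 10.17 in the C3-C5 arrays, and no higher than 6.93 in a phrenic or 4.01 in an LMC radial array. Phox2a and Tbx20, defining genes of hindbrain branchial and visceral motor neurons, lay at 2.52 to 3.00 and at 3.40 to 3.59, the bottom of the scale. The arrays fell into 2 sets by their 25th percentile: replicates 2 and 3 of the phrenic and of the C3-C5 cells formed a lower set of 4, and the other 7 arrays, all LMC radial arrays among them, a higher set. What separates these sets is not given in the labels. The Actb 3′ minus 5′ probe set difference, a measure that moves with RNA integrity, was 1.71 ± 0.48 (SD) in phrenic, 1.53 ± 0.43 in C3-C5 and 1.06 ± 0.06 in LMC radial arrays. Values of the members within each array set are given beside their results.

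Hox genes encode homeodomain transcription factors, lie in 4 clusters in the mouse, and are expressed in nested domains along the body axis in the order of their position in the cluster. Genes of the Hox2 and Hox3 groups have their anterior limits in the hindbrain, where Hoxa2 and Hoxb2 act in the rhombomeres and Hoxa3, Hoxb3 and Hoxd3 have overlapping roles in the caudal hindbrain and its motor nuclei. In the spinal cord they remain expressed in neurons, while posterior groups set the identity of motor columns and pools, and Hox proteins bind DNA together with Pbx, Meis and Pknox cofactors.

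The 2 genes that passed a test of their level between cell types, Hoxa2 and Hoxd3, are shown first with the 250 bases that precede their annotated start. These sequences are from RefSeq on GRCm38.p6, read 5′ to 3′ on the strand of the gene, and 3 of the 5 genes had an entry. Capitals mark every match on either strand to 5 motifs. The motifs were AGGTCA, the unit that nuclear receptors for retinoic acid bind as a repeat, the Cdx site TTTATG, the Meis and Pknox site TGACAG, the Hox and Pbx site TGATNNAT, and the CCAAT box, CCAAT.
Hoxa2 (chr6:52164832-52165081, minus strand): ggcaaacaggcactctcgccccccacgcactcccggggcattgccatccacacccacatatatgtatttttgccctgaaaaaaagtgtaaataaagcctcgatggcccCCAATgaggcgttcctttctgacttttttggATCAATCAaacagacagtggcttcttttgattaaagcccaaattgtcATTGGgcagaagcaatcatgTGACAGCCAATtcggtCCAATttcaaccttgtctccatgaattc
Hoxd3 (chr2:74711743-74711992, plus strand): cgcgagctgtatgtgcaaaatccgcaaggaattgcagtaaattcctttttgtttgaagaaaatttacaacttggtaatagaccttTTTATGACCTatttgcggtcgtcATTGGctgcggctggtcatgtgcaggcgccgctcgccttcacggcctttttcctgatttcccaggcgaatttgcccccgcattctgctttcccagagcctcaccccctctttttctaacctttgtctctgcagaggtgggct

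The Hoxa2 window held the Meis and Pknox site 44 to 39 bases before the start, directly followed by a CCAAT box at 38 to 34. It also held the Hox and Pbx site on the reverse strand at 111 to 104 bases, and 4 CCAAT boxes in all. The Hoxd3 window held the Cdx site 165 to 160 bases before the start, which overlaps a reverse-strand AGGTCA at 161 to 156, and 1 CCAAT box. Neither gene's window held a letter match to the other's motifs apart from CCAAT, and the Hoxa3 window (chr6:52213068-52213317) held TGACAG only. Such short matches are common: of 32851 RefSeq promoter windows of the same length, 14.0% held AGGTCA, 10.8% TTTATG, 15.9% TGACAG, 7.68% TGATNNAT and 33.8% CCAAT. A match describes letters in this window and is not evidence of binding.

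Hoxd3 was the member that differed most between cell types. It is a gene of the Hoxd cluster, known for its role in the cervical vertebrae and, with its paralogs, in the hindbrain. The 4 phrenic arrays read 10.19, 10.19, 10.28 and 10.62 on the log2 scale. The C3-C5 arrays read 9.02, 9.42, 9.62 and 9.83, and the LMC radial arrays 7.73, 8.72 and 7.68. Every phrenic array lay above every C3-C5 array, and every C3-C5 array above every LMC radial array, so that no pair of types overlapped.

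**Figure D1:**
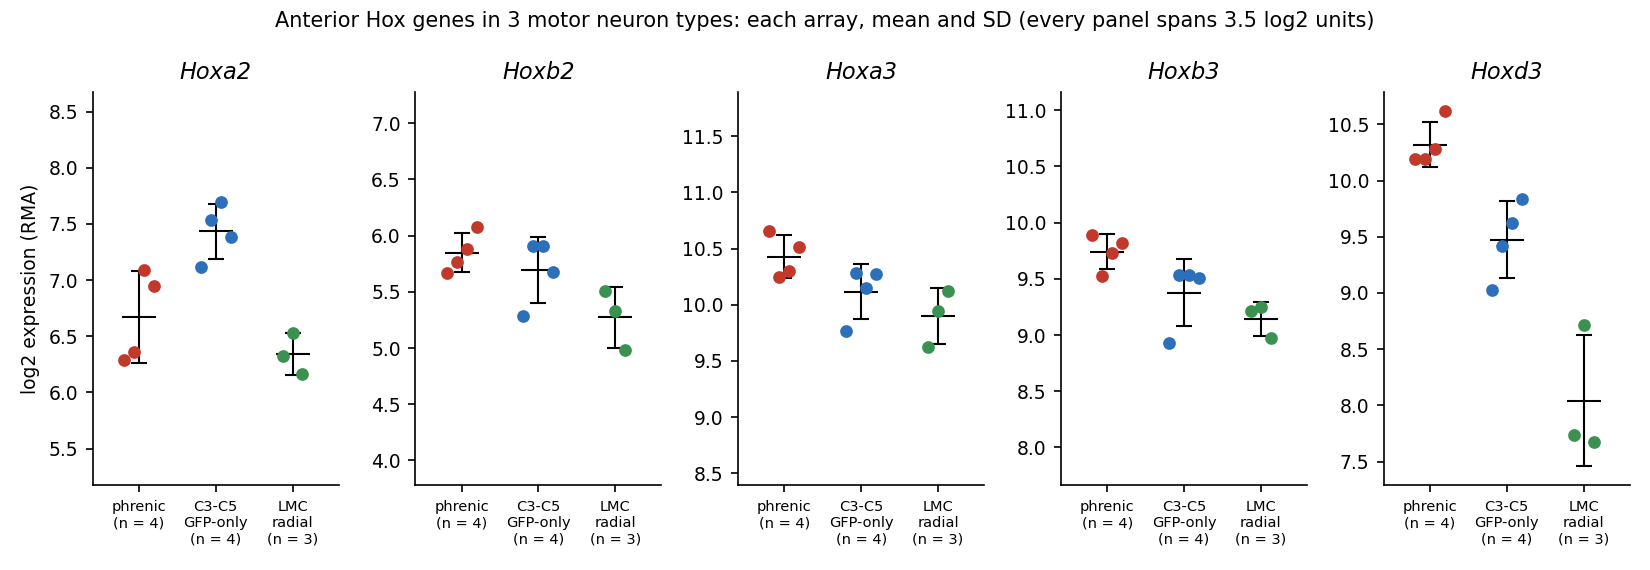
The log2 expression value (vertical axis) of each anterior Hox gene in each array, by cell type; points are arrays and bars are the mean ± SD (n = 4, 4 and 3). Hoxd3 steps down from phrenic (mean 10.32) to C3-C5 (9.47) to LMC radial (8.04), while Hoxa2 is highest in the C3-C5 arrays (7.43).

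Mean Hoxd3 was 10.32 ± 0.20 (SD) over the 4 phrenic arrays, 9.47 ± 0.34 over the 4 C3-C5 arrays and 8.04 ± 0.58 over the 3 LMC radial arrays. Phrenic cells exceeded LMC radial cells by 2.28 ± 0.26 (SE), or 4.85-fold, with a limma adjusted p of 0.000532. In this comparison 6.61% of all probe sets passed an adjusted p of 0.05, with 3.48% higher in phrenic cells, and Hoxd3 was the 1 of the 5 members that did. The call held in all 11 fits that left out 1 array each and in all 13 other alternatives, where the difference ran from 2.10 to 2.62 and from 2.12 to 2.36. It was 2.36 within the higher array set, with an adjusted p of 0.0425.

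LMC radial cells also had less Hoxd3 than C3-C5 cells. The difference, LMC radial minus C3-C5, was −1.43 ± 0.26 (SE), a 2.70-fold lower level with a limma adjusted p of 0.0152. In this comparison 3.76% of all probe sets passed, with 1.88% lower in LMC radial cells, and 2 members did, Hoxd3 and Hoxa2. The Hoxd3 call was lost when C3-C5 replicate 3, LMC radial replicate 1 or LMC radial replicate 3 was left out, with adjusted p-values of 0.0577, 0.0666 and 0.061, while the difference stayed between −1.77 and −1.25 over all 11 such fits. It was also lost within the higher array set (−1.39, adjusted p = 0.273), with low values raised to 5 (0.0805) and with the Actb 3′ minus 5′ difference as a covariate (0.0693).

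Between phrenic and C3-C5 cells the Hoxd3 difference did not pass. The sample titles give a segment for the C3-C5 cells only. The difference was 0.85 ± 0.24 (SE), with a 95% interval from 0.31 to 1.38 and a limma adjusted p of 0.127. The arrays did not overlap, which held for 7.49% of all probe sets, and 1.96% of probe sets passed the test in this comparison. Hoxd3 was 0.97 higher in phrenic cells within the higher array set and 0.72 within the lower set. Without LMC radial replicate 2, which changes only the estimate of the spread, the adjusted p was 0.0492.

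Mesenchyme and cartilage genes moved with this comparison. The mean of 18 mesenchyme and cartilage genes was 6.08 ± 0.71 (SD) in the phrenic arrays, 4.73 ± 0.18 in C3-C5 and 5.66 ± 0.60 in LMC radial arrays, with ranges of 5.29 to 6.82, 4.52 to 4.93 and 4.97 to 6.09. The number of these genes with a type mean under 5 was 5, 11 and 6. With that mean as a covariate, the Hoxd3 difference between phrenic and C3-C5 cells was 0.34 (limma adjusted p = 0.878), while phrenic cells still exceeded LMC radial cells by 2.12 (adjusted p = 0.00109). The phrenic and C3-C5 ranges of the covariate do not overlap, so it cannot be told apart from cell type in that comparison. The SE of the Hoxd3 difference there went from 0.24 to 0.35.

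Hoxa3 and Hoxb3, the paralogs of Hoxd3, differed less. Both are expressed through the caudal hindbrain and cervical cord, and Hoxa3 is also required in pharyngeal crest and endoderm. Hoxa3 read 10.66, 10.24, 10.30 and 10.51 in phrenic arrays, 9.77, 10.28, 10.15 and 10.27 in C3-C5 arrays, and 9.63, 9.95 and 10.12 in LMC radial arrays. The phrenic and LMC radial arrays did not overlap, and the C3-C5 arrays overlapped both. The Hoxa3 difference was 0.53 ± 0.17 (SE) between phrenic and LMC radial cells, with a 95% interval from 0.15 to 0.90 and a limma adjusted p of 0.0954. It was 0.31 (−0.04 to 0.66) between phrenic and C3-C5 cells and −0.22 (−0.59 to 0.16) between LMC radial and C3-C5 cells. The phrenic minus C3-C5 value was 0.57 within the higher array set and 0.06 within the lower one, and 0.19 without C3-C5 replicate 1. Within the higher set the phrenic minus LMC radial value was 0.69 and the LMC radial minus C3-C5 value −0.12. None of these passed.

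Hoxb3 read 9.89, 9.53, 9.73 and 9.82 in phrenic arrays, 8.93, 9.54, 9.53 and 9.51 in C3-C5 arrays, and 9.21, 9.25 and 8.97 in LMC radial arrays. C3-C5 replicate 1 stood below the other C3-C5 arrays, and the phrenic arrays lay above all LMC radial arrays. Phrenic cells exceeded LMC radial cells by 0.60 ± 0.17 (SE), with a 95% interval from 0.23 to 0.96 and a limma adjusted p of 0.0577. That difference passed when C3-C5 replicate 1 was left out, with an adjusted p of 0.0197, and with a variance prior that has a trend and robust estimation together, at 0.0415. The Hoxb3 difference was 0.37 (0.03 to 0.70) between phrenic and C3-C5 cells and −0.23 (−0.60 to 0.13) between LMC radial and C3-C5 cells, with adjusted p-values of 0.334 and 0.469. The phrenic minus C3-C5 value was 0.64 within the higher array set and 0.10 within the lower one, 0.22 without C3-C5 replicate 1 and 0.09 with the mesenchyme covariate. Within the higher set the phrenic minus LMC radial value was 0.71 and the LMC radial minus C3-C5 value −0.07. None of these passed.

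Hoxa2 had a different order of levels. It is the most anterior Hox gene in the hindbrain and specifies the second branchial arch. Phrenic arrays read 6.29, 6.36, 7.09 and 6.95, C3-C5 arrays 7.12, 7.54, 7.69 and 7.39, and LMC radial arrays 6.33, 6.53 and 6.16. The C3-C5 arrays lay above all others, and the phrenic and LMC radial arrays overlapped.

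Mean Hoxa2 was 6.67 ± 0.41 (SD) over the 4 phrenic arrays, 7.43 ± 0.25 over the 4 C3-C5 arrays and 6.34 ± 0.19 over the 3 LMC radial arrays. LMC radial minus C3-C5 cells gave −1.09 ± 0.22 (SE), a 2.13-fold lower level with a limma adjusted p of 0.0213. This call was lost without C3-C5 replicate 2 or 3 or LMC radial replicate 1 or 3, with adjusted p-values of 0.0682, 0.0753, 0.0721 and 0.0791. It was also lost with quantile normalization (0.0617), with low values raised to 5 (0.095), with the array set as a block (0.071), within the higher array set (−0.91, 0.237) and with the Actb 3′ minus 5′ difference as a covariate (0.078).

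The Hoxa2 difference, phrenic minus C3-C5, was −0.76 ± 0.20 (SE), with a 95% interval from −1.20 to −0.32. The limma adjusted p of 0.0942 did not pass, although the unadjusted p was 0.00295. The difference was −0.63 within the higher array set and −0.89 within the lower one. It passed with array weights (adjusted p = 0.0355), with the Actb covariate (0.0228) and with the mesenchyme covariate, where it was −1.39 (0.0266). The mesenchyme covariate cannot be told apart from cell type between phrenic and C3-C5 cells, as its ranges there do not overlap. Between phrenic and LMC radial cells the difference was 0.33 (−0.14 to 0.81), with an adjusted p of 0.401.

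Hoxb2, which acts in the fourth rhombomere and in facial motor neurons, did not pass any pairwise test. It read 5.67, 5.77, 5.88 and 6.08 in phrenic arrays, 5.28, 5.91, 5.90 and 5.68 in C3-C5 arrays, and 5.51, 5.33 and 4.98 in LMC radial arrays. Phrenic arrays lay above all LMC radial arrays and overlapped the C3-C5 arrays. The difference was 0.57 (0.17 to 0.98, adjusted p = 0.0925) between phrenic and LMC radial cells, 0.15 (−0.22 to 0.53) between phrenic and C3-C5 cells, and −0.42 (−0.82 to −0.02, adjusted p = 0.231) between LMC radial and C3-C5 cells. The phrenic minus C3-C5 value was 0.39 within the higher array set, −0.08 within the lower one, 0.02 without C3-C5 replicate 1 and −0.28 with the mesenchyme covariate. Within the higher set the phrenic minus LMC radial value was 0.60 and the LMC radial minus C3-C5 value −0.21.

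Over the 5 members, 4 had phrenic arrays that did not overlap the LMC radial arrays (Hoxb2, Hoxa3, Hoxb3 and Hoxd3), against 18.7% of all probe sets. Between phrenic and C3-C5 cells 0 members passed in the limma fit, 3 had an unadjusted p under 0.05 and 2 did not overlap, against 7.49% of all probe sets. Both counts mix directions, as Hoxa2 was lower in phrenic cells and Hoxd3 and Hoxb3 were higher. Of the 3, Hoxb3 had the largest unadjusted limma p, 0.0363, which ranked 4898 among the 45037 probe sets. Between LMC radial and C3-C5 cells 2 did not overlap, against 23.1% of all probe sets. The median difference of the members was 0.57 for phrenic over LMC radial cells, 0.31 for phrenic over C3-C5 cells and −0.42 for LMC radial over C3-C5 cells. The medians of all 18193 genes were −0.0048, 0.0066 and 0.0059 in these comparisons.

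The difference between paralogs within the same array is given as a description with no test, because the pairs were chosen after the values were seen. Each paralog's log2 value was subtracted from that of Hoxd3 or Hoxa2 in every array, so that a scaling of whole arrays cancels. Hoxd3 minus Hoxa3 was −0.11 ± 0.25 (SD) in phrenic, −0.64 ± 0.19 in C3-C5 and −1.86 ± 0.61 in LMC radial arrays. Hoxd3 minus Hoxb3 was 0.58 ± 0.21, 0.10 ± 0.18 and −1.10 ± 0.50. In both pairs the mean was lowest in the LMC radial arrays. Hoxa2 minus Hoxb2 was 0.82 ± 0.28 in phrenic, 1.74 ± 0.09 in C3-C5 and 1.07 ± 0.22 in LMC radial arrays, with the highest mean in C3-C5 arrays. A level of these differences has no meaning by itself, since probe sets differ in their response, and only its shift between types can be read. For Hoxa2 minus Hoxb2 that reading is limited, as Hoxb2 had type means of 5.27 to 5.85, close to the range of weak signal.

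Some genes had other probe sets. The probe set 1427605_at of Hoxb3 had type means of 6.56, 6.20 and 6.23 in phrenic, C3-C5 and LMC radial cells and passed no test. For Hoxa3, 1452421_at (7.14, 6.89 and 6.83) and 1429398_at (6.17, 6.08 and 5.41) were, like the gene's main probe set 1427433_s_at, highest in phrenic and lowest in LMC radial cells, and none of these passed a pairwise test. The fourth Hoxa3 probe set, 1431392_at, went the other way. It read 4.34, 4.12, 3.97 and 4.02 in phrenic arrays, 4.47, 4.08, 4.09 and 4.48 in C3-C5 arrays, and 5.11, 5.30 and 5.38 in LMC radial arrays.

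The LMC radial arrays of 1431392_at lay above all others. LMC radial cells exceeded C3-C5 cells by 0.98 ± 0.15 (SE, limma adjusted p = 0.00539), and phrenic minus LMC radial cells gave −1.15 ± 0.15 (adjusted p = 0.00106). Its phrenic and C3-C5 means of 4.12 and 4.28 were below 5, in the range of weak or absent signal. The annotated Hoxa3 gene model overlaps those of Hoxa4, Hoxa5, Hoxa6 and antisense transcripts, and which transcript a probe set reads was not tested. With the mean of all 4 probe sets in place of the strongest, the Hoxa3 difference between LMC radial and C3-C5 cells was 0.01.

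**Figure D2:**
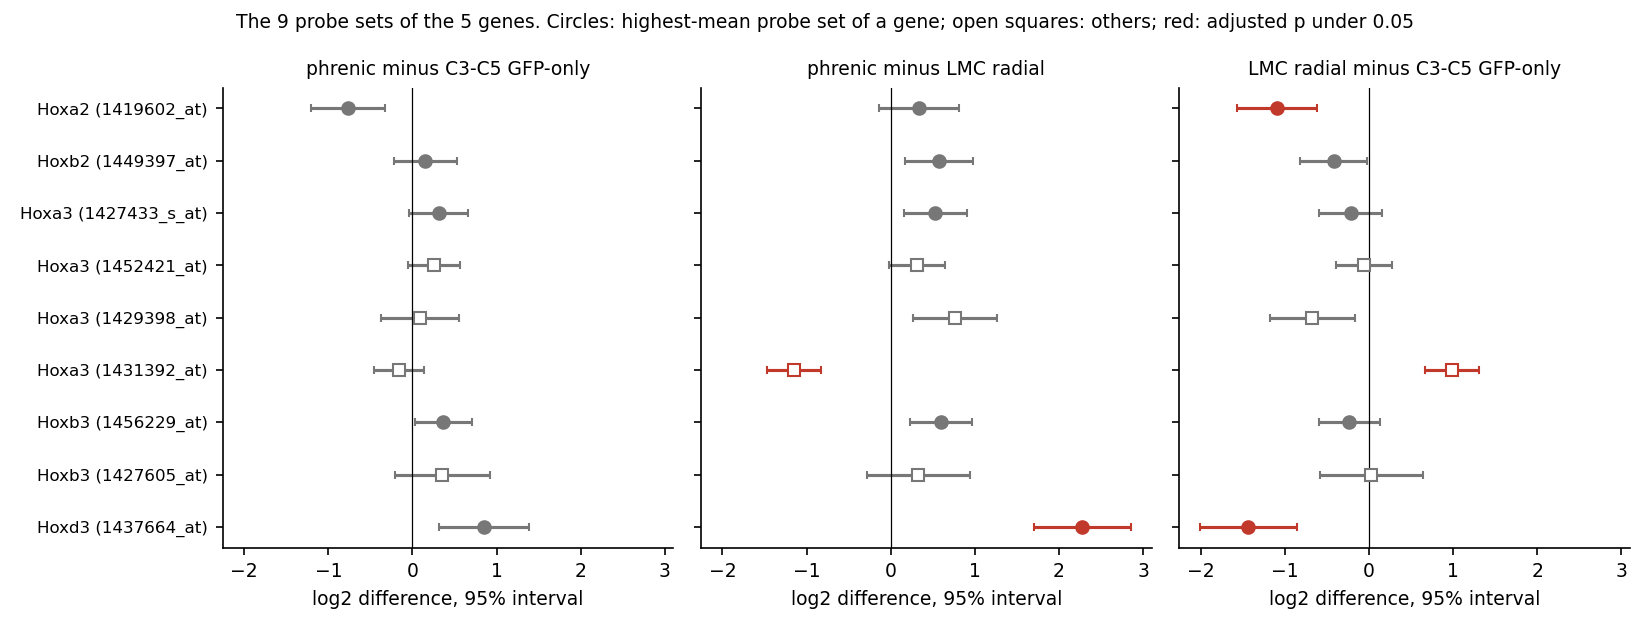
The log2 difference (horizontal axis, bars the 95% interval) of each of the 9 probe sets of the 5 genes, for phrenic minus C3-C5 GFP-only, phrenic minus LMC radial and LMC radial minus C3-C5 GFP-only cells; circles are the probe sets that stand for a gene, open squares the others, and red marks an adjusted p under 0.05. The Hoxa3 probe set 1431392_at lies at −1.15 for phrenic minus LMC radial cells, opposite to the other Hoxa3 probe sets (0.31 to 0.77).

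Probe sets of neighbouring transcripts were read beside Hoxd3. The Hoxd3 gene model overlaps Hoxd4, the microRNA gene Mir10b and the antisense transcript Hoxd3os1. Hoxd3 had no single-symbol probe set besides 1437664_at, and Hoxd4 had none. Which transcript 1437664_at or a shared probe set reads was not tested. A probe set annotated to both Hoxd4 and Hoxd3, 1421537_at, read 5.71, 5.80, 5.52 and 5.64 in phrenic arrays, 4.60, 5.42, 4.91 and 4.80 in C3-C5 arrays, and 4.63, 4.48 and 3.53 in LMC radial arrays. Phrenic arrays were above all others, and the difference from LMC radial cells was 1.45 ± 0.26 (SE, limma adjusted p = 0.0073). Its C3-C5 and LMC radial means of 4.93 and 4.21 were below 5, in the range of weak or absent signal. The pairwise tests of phrenic against C3-C5 cells (adjusted p = 0.185) and of LMC radial against C3-C5 cells (0.154) did not pass. The other shared probe set, 1450209_at, had type means of 4.06 to 4.33 and passed no test.

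Hoxd3os1, singled out after its values were seen, had the opposite order to Hoxd3 between phrenic and C3-C5 cells. Its probe set 1430263_at had means of 8.37 ± 0.21 (SD, n = 4), 8.82 ± 0.18 (n = 4) and 8.14 ± 0.25 (n = 3) in phrenic, C3-C5 and LMC radial cells. The difference between LMC radial and C3-C5 cells was −0.68 ± 0.16 (SE), with a limma adjusted p of 0.045, a call kept by 3 of the 11 fits that left out an array. Between phrenic and C3-C5 cells it was −0.44 ± 0.15 and did not pass (adjusted p = 0.204). The second probe set, 1460056_at, passed no test.

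Of the Hox1 group, Hoxb1 and Hoxd1 were read through single-symbol probe sets. Hoxb1, which acts in the fourth rhombomere, had means of 3.99, 3.37 and 3.46 in phrenic, C3-C5 and LMC radial cells, with phrenic replicate 4 alone at 5.40. Hoxd1 had means of 3.95, 3.21 and 3.14. Neither passed a pairwise test (adjusted p from 0.184 to 0.932), and both lay under 5 in every type. The signs of their LMC radial minus C3-C5 differences changed with a scaling of the arrays.

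The other Hox groups were read by the same rule. Of the Hox4 and Hox5 genes, 5 of the 6 measured were higher in phrenic than in LMC radial cells, against 3.48% of all probe sets, and 5 were lower in LMC radial than in C3-C5 cells, against 1.88%. Hoxb4 and Hoxa4 exceeded LMC radial cells by 2.05 and 1.58 in phrenic cells, and the exception, Hoxc4, differed by 0.00 with a range of means of 11.19 to 11.30. Between phrenic and C3-C5 cells 0 of the 6 passed in limma and 2 had an unadjusted p under 0.05. In that comparison an unadjusted limma p of 0.0363 ranked 4898 among the 45037 probe sets. The median differences of the list were 1.35, −1.05 and 0.13 for phrenic minus LMC radial, LMC radial minus C3-C5 and phrenic minus C3-C5 cells.

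Several posterior Hox genes were lower in phrenic than in LMC radial cells. Hoxc9, which marks thoracic levels and sets their boundary with the limb level, had a phrenic minus LMC radial difference of −5.05. Hoxc8, of the caudal brachial cord, had −5.38 against LMC radial cells and −3.56 against C3-C5 cells (limma adjusted p = 0.0283), and 7 of the 11 fits that left out an array kept the latter call. Hoxd8 and Hoxb6 were higher in phrenic than in LMC radial cells, by 1.98 and 1.41. Of the Hox6 to Hox8 genes, 2 of the 6 measured were higher and 3 were lower in phrenic than in LMC radial cells, against 3.48% and 3.14% of all probe sets. Of the lower ones, Hoxc8 kept the call in all 11 such fits, Hoxc6 in 4 and Hoxa7 in 2. Of the Hox9 to Hox13 genes 3 of 14 were lower: Hoxc9 kept the call in all 11 fits, Hoxa9 in 9, and Hoxd10, with every type mean under 5, in 2.

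**Figure D3:**
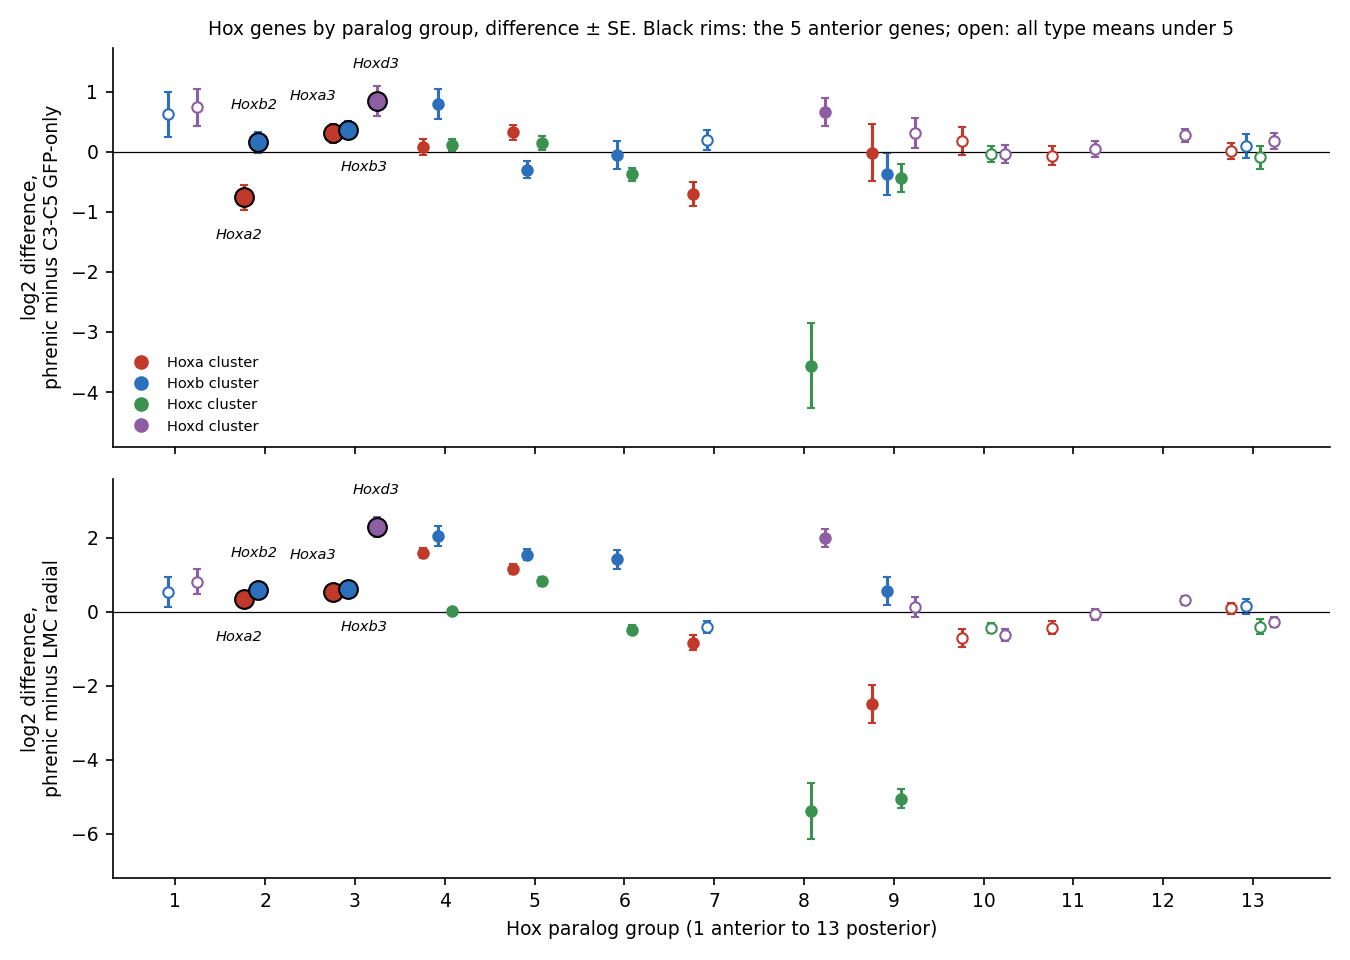
The log2 difference ± SE (vertical axis) of each Hox gene by paralog group (horizontal axis), for phrenic minus C3-C5 GFP-only cells (top) and phrenic minus LMC radial cells (bottom); colours are clusters, black rims mark the 5 anterior genes, and open points are genes with every type mean under 5. Against LMC radial cells Hoxd3 (2.28) lies beside Hoxb4 (2.05), while Hoxa3 and Hoxb3 lie at 0.53 and 0.60.

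The likeness between members was measured as the root mean square (RMS) difference of their centred log2 values over the 11 arrays. The values were not scaled, so the measure depends on the size of a gene's changes as well as on their order. Hoxb3 was nearer to Hoxa2 (0.55) than to Hoxd3 (0.72), although its type means had the order of Hoxd3. It was 0.17 for Hoxb2 and Hoxb3 and 0.17 for Hoxa3 and Hoxb3. It was 0.90 for Hoxa2 and Hoxd3, the largest among the 10 pairs, and Hoxd3 was 0.72 to 0.76 from Hoxb2, Hoxa3 and Hoxb3. These arrays share a platform and a normalization, and the values describe 11 arrays of 3 types.

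Among 8897 other genes with a mean of at least 6, Map3k5, a stress-activated kinase, had the pattern nearest to Hoxd3, at an RMS difference of 0.31. Its type means were 9.89, 9.35 and 7.36 in phrenic, C3-C5 and LMC radial cells. Mbnl2, an RNA splicing regulator, followed at 0.34, with means of 10.03, 9.19 and 8.30, and Pdzd2 at 0.35. The nearest Hox gene was Hoxb4, at rank 11 and 0.42. All these genes were lowest in the LMC radial cells, which follows from their choice by likeness to Hoxd3.

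The nearest genes to Hoxa2 were Npr2, a receptor for C-type natriuretic peptide (0.22), Nasp, a histone chaperone (0.23), and Clasrp (0.25). Npr2 had type means of 7.98, 8.57 and 7.60, in the order of Hoxa2, by whose pattern it was chosen. The nearest Hox gene was Hoxc5, at rank 1206 (0.45).

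**Figure D4:**
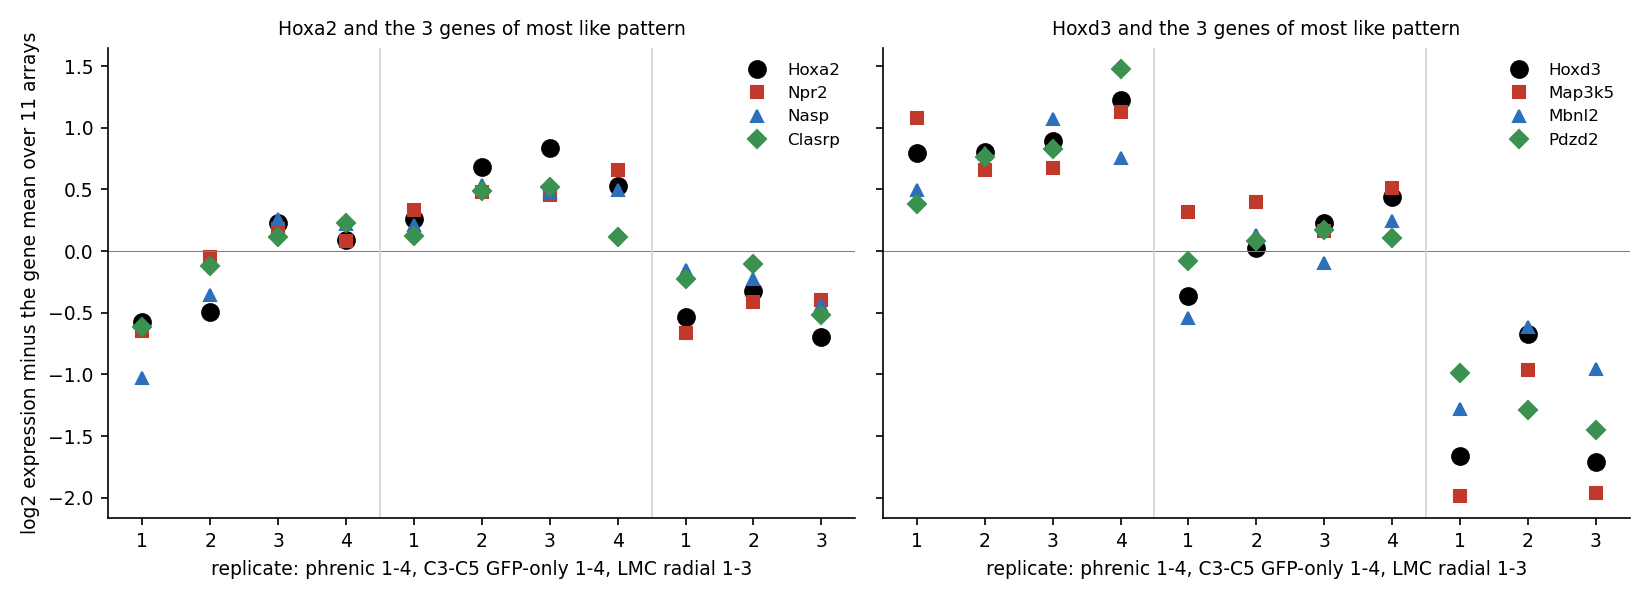
Values centred on each gene's mean (log2, vertical axis) in each array, grouped by cell type, for Hoxd3 and Hoxa2 and the 3 genes with the smallest RMS difference from each. Points are single arrays; Map3k5 (RMS difference 0.31) and Npr2 (0.22) are the nearest to Hoxd3 and Hoxa2.

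Regulators of anterior Hox genes, mostly of the retinoic acid pathway that induces them in the neural tube, were measured for 17 of 20. Between phrenic and C3-C5 cells 1 was higher and 3 were lower, against 0.973% and 0.986% of all probe sets. Between phrenic and LMC radial cells 2 were higher and 2 lower (3.48% and 3.14% of all probe sets), and between LMC radial and C3-C5 cells 1 was higher and 4 lower, against 1.88% of all probe sets in each direction. The median differences of the list were −0.05, −0.03 and 0.10 in these comparisons. Aldh1a2, the enzyme that makes retinoic acid in the cord, was lower in phrenic cells, with differences of −1.23 ± 0.14 (SE) from C3-C5 cells (limma adjusted p = 0.00136) and −1.53 ± 0.16 from LMC radial cells (0.000228).

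A pair of receptors of the pathway was higher in C3-C5 cells than in both other types. Rxrg, a retinoid X receptor, had differences of −1.17 between phrenic and C3-C5 cells and −1.38 between LMC radial and C3-C5 cells. Its means were 4.56, 5.72 and 4.35 in phrenic, C3-C5 and LMC radial cells, under 5 in all but the C3-C5 cells. Rarb, a retinoic acid receptor, had −0.96 and −0.92, calls kept by 4 and 2 of the 11 fits that left out an array. Crabp1, which binds retinoic acid in the cytoplasm, had means of 10.17, 10.45 and 7.75 in phrenic, C3-C5 and LMC radial cells. Its LMC radial minus C3-C5 difference was −2.70 ± 0.32 (SE, limma adjusted p = 0.00182), and phrenic exceeded LMC radial cells by 2.41.

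Gbx2, a homeobox gene of the anterior hindbrain, was higher in phrenic cells than in C3-C5 and LMC radial cells by 1.29 and 1.31, from phrenic values near 5, calls kept by 6 and 9 of 11 such fits. Cyp26b1, which degrades retinoic acid, had a difference of −1.40 between LMC radial and C3-C5 cells that 3 of 11 fits kept. Cdx4 was higher in LMC radial than in C3-C5 cells by 0.50, from means of 2.90 and 2.39 at the bottom of the scale, kept by 6 of 11 fits, and Crabp2 differed by −0.45 between phrenic and LMC radial cells, kept by 7 of 11. Rarb, Cyp26b1, Cdx4 and Crabp2 were named after their values were seen.

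Polycomb and Trithorax proteins hold Hox genes silent or active. Of 16 such genes 1 passed in any pairwise limma comparison. Of all probe sets 1.96% passed between phrenic and C3-C5 cells and 6.61% between phrenic and LMC radial cells. Between LMC radial and C3-C5 cells 3.76% passed. Bmi1 had a phrenic minus C3-C5 difference of −0.57 ± 0.12 (SE, adjusted p = 0.0448), a call kept by 2 of the 11 fits that left out an array and by neither scaling of the arrays. The median differences of the list were −0.08, −0.04 and 0.03 for phrenic minus C3-C5, phrenic minus LMC radial and LMC radial minus C3-C5 cells.

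Of 9 Hox cofactor genes 8 were measured. Between phrenic and C3-C5 cells 2 were lower, against 0.986% of all probe sets. Between phrenic and LMC radial cells 1 was lower (3.14% of all probe sets), and between LMC radial and C3-C5 cells 1 (1.88%). Meis1 was lower in phrenic than in C3-C5 cells, with a difference of −1.63 ± 0.26 (SE, limma adjusted p = 0.00824), and so was Meis3, with −0.74 ± 0.10 (0.00345). Meis3 was also lower in phrenic than in LMC radial cells, with −0.50 ± 0.11 (0.021), a call kept by 7 of the 11 fits that left out an array. Pknox2 was lower in LMC radial than in C3-C5 cells, with −1.06 ± 0.21 (0.0232), kept by 8 of 11. The Pbx genes did not pass, and the median differences of the list were −0.07, −0.06 and −0.10.

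Of 9 genes known to lie downstream of Hox2 and Hox3 proteins in the hindbrain 8 were measured. Between phrenic and C3-C5 cells 1 was lower, against 0.986% of all probe sets. Between phrenic and LMC radial cells 2 were lower (3.14% of all probe sets), and between LMC radial and C3-C5 cells 1 was higher (1.88%). Robo2, an axon guidance receptor, was lower in phrenic than in C3-C5 cells, with a difference of −1.25 ± 0.26 (SE, limma adjusted p = 0.0329), a call kept by 5 of the 11 fits that left out an array. Epha4, an ephrin receptor expressed in alternate rhombomeres, was lower in phrenic than in LMC radial cells, with −0.66 ± 0.13 (0.0124), kept by 10 of 11. Gata3 passed in both comparisons with LMC radial cells, from type means of 2.79 to 3.59 at the bottom of the scale. The median differences of the list were 0.02, −0.27 and 0.23.

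Other cell types that the sort could hold were read from marker lists. Of the 18 mesenchyme genes, Fn1, Foxc1 and Postn were higher in phrenic than in C3-C5 cells, by 1.49, 2.15 and 1.35, and the list's median difference was 1.43. Slc1a3 of the 11 progenitor and glial genes was higher by 1.73, and Cdk1 of the 11 cell cycle genes by 1.77. These 5 calls were kept by 2 to 11 of the 11 fits that left out an array, and 0.973% of all probe sets were called higher in this comparison. Postn, kept by 2 of these fits, had phrenic and C3-C5 means of 4.90 and 3.55, both under 5. Foxc1 and Slc1a3 lay under 5 in C3-C5 cells, at 4.72 and 4.86. An unadjusted p under 0.05 was reached by 12 of the 18 mesenchyme, 7 of the 11 cell cycle and 2 of the 11 progenitor and glial genes. Such values are common in this comparison, where an unadjusted limma p of 0.0363 ranked 4898 among the 45037 probe sets. The median difference was 1.11 for the cell cycle list and 0.29 for the progenitor and glial list. The cell cycle list mean was 6.49 ± 0.74 (SD) in phrenic against 5.55 ± 0.15 in C3-C5 arrays. Of the 7 measured sensory neuron and neural crest genes 0 passed in limma between phrenic and C3-C5 cells, 2 had an unadjusted p under 0.05, and the list mean was 6.44 ± 0.87 (SD) in phrenic against 5.65 ± 0.16 in C3-C5 arrays.

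Of the 15 measured interneuron genes Gata3 alone passed, in the comparisons with LMC radial cells. Of all probe sets 6.61% passed between phrenic and LMC radial cells and 3.76% between LMC radial and C3-C5 cells. Between phrenic and C3-C5 cells 5 of the 15 interneuron genes had an unadjusted p under 0.05. In that comparison an unadjusted limma p of 0.0363 ranked 4898 among the 45037 probe sets. The differences of Lbx1, Gad1 and Gad2 were 1.95, 1.65 and 1.21 (limma adjusted p = 0.176, 0.243 and 0.267). The list mean was 4.91 ± 0.50 (SD) in phrenic, 4.53 ± 0.11 in C3-C5 and 4.59 ± 0.27 in LMC radial arrays. Of the 12 endothelial, blood and microglial genes 0 passed in limma and 1 had an unadjusted p under 0.05 between phrenic and C3-C5 cells, and every type mean in C3-C5 and LMC radial cells was under 5. Of the 7 measured branchial and visceral motor neuron genes, 5 had means under 5 in every type, and Rgs4 and Gata3 passed. Of the 12 motor neuron genes, Lhx3, Lhx4 and Isl2 were lower in phrenic than in C3-C5 cells, against 0.986% of all probe sets. Those 3 genes, Mnx1 and Isl1 were lower in LMC radial than in C3-C5 cells, against 1.88% of all probe sets. The part of other cells in the Hox differences was not tested beyond the mesenchyme covariate.

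The study's design text compares each type with the overall expression, taken here as the mean of the other types. Against that mean, Hoxd3 was higher in phrenic cells by 1.56 ± 0.22 (SE, limma adjusted p = 0.00223), where 3.85% of all probe sets passed and 2.4% were higher. Hoxa2 was higher in C3-C5 cells by 0.93 ± 0.18 (adjusted p = 0.038), where 0.973% passed and 0.691% were higher. In LMC radial cells the difference was −1.86 ± 0.23 for Hoxd3 (0.00111) and −0.71 ± 0.19 for Hoxa2 (0.0493), where 7.02% passed and 3.37% were lower. Within the higher array set 0 members were called in any of the 3 comparisons. For C3-C5 cells 0 members were called also with quantile normalization, with low values raised to 5 and with the array set as a block. The same count of 0 was found in 7 of the 11 fits that left out an array, those without phrenic replicate 1, without C3-C5 replicate 2, 3 or 4, or without any 1 of the LMC radial arrays. With the replicate number as a block the members called went from 1 to 0 in C3-C5 cells and from 2 to 1 in LMC radial cells. Hoxb2, Hoxa3 and Hoxb3 did not pass against the mean of the other types in any cell type, and their phrenic differences were 0.36, 0.42 and 0.48.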

How the data were processed

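RNA was measured on 11 arrays. The deposited values are log2 expression, with 1 value for each array and probe set. Per the submitters' processing notes the authors made them with RMA, which corrects background, normalizes probes by quantiles and summarises each probe set; its version is not given in the sources used here. Array medians ran from 4.48 to 4.63, and precision is limited by how few arrays there are. Of 45101 probe sets, 64 controls were left out and 45037 tested, with no filter on low values. The array annotation gave 34945 of these 1 gene symbol, 932 several and 9160 none.

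A linear model with a mean per cell type was fitted over all arrays in limma 3.58.1 (R 4.3.3), with moderated two-sided tests and 8 residual degrees of freedom. Benjamini-Hochberg adjustment ran over all probe sets separately in each of 6 comparisons, with 0.05 as the threshold for passing. Intervals are 95% intervals of single differences, not adjusted. The fit was tested on simulated data.

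All 5 members were named whatever their result, through the probe set with the highest mean, with their other probe sets. From each gene list up to 4 genes with the smallest pairwise p were named, and the 3 genes nearest to each member that passed a pairwise test. The members and lists were chosen with earlier results of these data known, so no count over them is independent evidence. Sequences are RefSeq promoters; gene models that overlap were taken from a RefSeq gene table.

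Replicate numbers are in the titles of all types. Deviations from the type means correlated at 0.125 to 0.224 in the 4 pairs of phrenic and C3-C5 arrays with the same number, and at −0.0835 to 0.0499 in the 6 pairs with LMC radial arrays. Pairs of other numbers within an array set reached 0.28, and 0 of the 4 phrenic arrays correlated best with its own number, so the block was kept as an alternative. No 2 arrays held identical values. Other alternatives were the scaling of arrays, low values, the variance prior, array weights, gene means, fits of only the types compared, array sets, covariates for mesenchyme genes and Actb, and leaving out each array.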

Additional observations from a re-analysis of the deposited data

Results flagged for a closer look

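In 160 groups of 4 arrays (members and named genes, phrenic and C3-C5 cells), the gap between the lowest or highest array and its nearest neighbour, as a share of the range, was compared with Dixon's 95% critical value. It was exceeded in 6 groups, and chance alone exceeds it in about 5% of groups. Among the members, Hoxb3 read 8.93 in C3-C5 replicate 1, below the other C3-C5 arrays, with a share of 0.95. Crabp1 read 10.91 in phrenic replicate 4 (0.847), Lbx1 5.87 in C3-C5 replicate 4 (0.837), Tfap2a 5.96 in C3-C5 replicate 1 (0.914), Fabp7 8.20 in C3-C5 replicate 4 (0.942) and Cdh5 4.61 in phrenic replicate 3 (0.947). The causes were not tested.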

How the results depend on the processing

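Hoxd3 stayed higher in phrenic than in LMC radial cells and passed in all 24 alternatives to the fit reported. The signs of 4 member differences that did not pass reversed: Hoxb2 between phrenic and C3-C5 cells with the mesenchyme covariate (−0.28) and in the lower array set (−0.0807), Hoxa2 between phrenic and LMC radial cells with the Actb covariate (−0.0355), and Hoxa3 between LMC radial and C3-C5 cells with gene means (0.00966). Members called between phrenic and C3-C5 cells went from 0 to 1 with array weights and with either covariate, and were 0 to 1 without single arrays. Between phrenic and LMC radial cells they went from 1 to 2 with a trend and robust prior, and were 1 to 2 without single arrays. Between LMC radial and C3-C5 cells they went from 2 to 1 with quantile normalization and the array-set block, and to 0 with low values raised to 5, within the higher set and with the Actb covariate, and were 0 to 2 without single arrays.

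When a type was set against the others' mean, the phrenic count went from 1 to 0 within the higher set. The C3-C5 count went from 1 to 0 with quantile normalization, low values raised to 5, the array-set block and the higher set, and was 0 to 1 without single arrays. The LMC radial count went from 2 to 1 with quantile normalization, median centring, low values raised to 5, the trend and robust prior, the array-set block and the Actb covariate, to 0 within the higher set, and was 1 to 4 without single arrays. The replicate block gave 0 for C3-C5 cells and 1 for LMC radial cells and changed no other member call. The causes were not tested.

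Probe sets called over the whole array moved with the same settings: 882 between phrenic and C3-C5 cells (127 to 1240), 2979 between phrenic and LMC radial cells (778 to 4266) and 1694 between LMC radial and C3-C5 cells (98 to 6685). Against the other types they were 1733 (511 to 2368), 438 (24 to 1758) and 3163 (551 to 6864) for phrenic, C3-C5 and LMC radial cells. The lowest counts are from the higher array set, which holds 7 arrays.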
